A study of Nicotiana tabacum with 60 samples.

Results

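The chloroplast genes *petB* and *petD* were followed at 2 levels, translation output from Ribo-seq and transcript accumulation from RNA-seq, in 10 lines of tobacco. They were chosen by name, as 2 genes of 78 in the count tables, because both contain an intron, are cotranscribed, and are hit in Δ*petB/D*. *petB* encodes cytochrome *b*6 and *petD* encodes subunit IV, the membrane subunits that carry the quinol oxidation site of the cytochrome *b*6*f* complex (Cyt *b*6*f*). This complex passes electrons from photosystem II (PSII) to photosystem I (PSI) and pumps protons into the thylakoid lumen. Besides them, the chloroplast encodes cytochrome *f* (*petA*) and the small subunits *petG*, *petL* and *petN*. In land plants *petB* and *petD* lie at the 3′ end of the *psbB* transcription unit, behind the PSII genes *psbB*, *psbT* and *psbH*, and *psbN* is read from the opposite strand within that unit. The long primary transcript is spliced and cut into many smaller RNAs, so that the mRNA of each gene can differ in amount although transcription is shared.

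The mutants had lesions in Cyt *b*6*f* (Δ*petB/D*, Δ*petN*), the ATP synthase (Δ*atpB/E*, labelled for *atpB* alone, and as-*ATPC*), PSII (Δ*psbJ* and Δ3′-*psbD*) or PSI (Δ*psaB*), and all lines, controls included, are labelled as Petit Havana. Each mutant carried a chloroplast lesion in the named gene or genes, except as-*ATPC*. In that line nuclear *ATPC*, encoding the γ subunit of the chloroplast ATP synthase, was reduced by antisense RNA. By the study's account, Δ*petB/D* also lacks *psbB*, *psbT*, *psbH* and *psbN*, so that it is hit in PSII as well as in Cyt *b*6*f*. In the same account, the Δ3′-*psbD* deletion also removes the start of the PSII gene *psbC*, whose expression fell strongly. The Δ*petN* insertion also made antisense RNA of the neighbouring gene *psbM* and lowered its expression. The 2 libraries of Δ*psaB* that came from one allele and the single library from another were treated as 1 group. Controls were pRB8c for the Cyt *b*6*f*, PSII and Δ*atpB/E* mutants, RB70 for Δ*psaB* and the wild type SNN for as-*ATPC*. pRB8c and RB70 are transplastomic lines that carry the *aadA* spectinomycin resistance gene in the chloroplast genome. The chloroplast mutants and both transplastomic controls grew on sugar-containing medium in low light, and as-*ATPC* and SNN grew on soil. Leaf RNA gave 3 libraries per line and type, 60 in all, and the replicates are separate plants or pools only as far as the study calls them biological.

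Footprints were counted in the last exon alone, without the first 10 and the last 30 nt. The counted part spans positions 78224 to 78825 (602 nt, plus strand) for *petB* and 79806 to 80240 (435 nt, plus strand) for *petD*. Positions are those of the chloroplast genome named in the methods. RNA was counted over the reading frames of 648 and 483 nt, leaving out reads that crossed an intron and exon junction by more than 52 bp. Levels are given as CPM, counts brought to a common library total with TMM factors over the 30 libraries of a type. Changes are log2 ratios from edgeR's quasi-likelihood test, fitted on 77 genes with Benjamini-Hochberg adjustment, and a change was called at an adjusted p of at most 0.01. The SE of a change is the size of its log2 ratio divided by the square root of that test's F statistic, so it takes in the spread between replicates. A change of translation efficiency (TE) is the change of footprints relative to that of RNA. Reading-frame counts per library ran from 31328 to 5331355 (median 978288) in Ribo-seq and from 1029393 to 14748697 in RNA-seq, and 3.00 to 33.8% and 36.3 to 65.8% of mapped reads were chloroplast reads. The fewest footprints came from Δ*psaB* (31328 to 146708) and Δ*atpB/E* (107032 to 138170). Since these are bulk leaf samples, less chloroplast RNA per cell and fewer chloroplast-rich cells cannot be told apart.

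Before the results, a measurement in the RNA tables has to be set out. The RNA counts of *petB* in the libraries labelled RB70 were 212762, 163079 and 187938, and those in the libraries of Δ*petN* with the same replicate numbers were 210448, 161828 and 185986. For *petD* the counts were 60801, 42033 and 50920 in RB70 and 60670, 41773 and 50665 in Δ*petN*. Library by library, the RB70 value was thus 1.01, 1.01 and 1.01 times the Δ*petN* value for *petB* and 1.00, 1.01 and 1.01 times for *petD*.

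The libraries labelled Δ*psaB* stood in the same relation to those of Δ*psbJ*. *petB* had 159062, 153807 and 167043 RNA counts in Δ*psaB* and 156035, 150493 and 163929 in Δ*psbJ*, and *petD* had 37134, 39529 and 44364 in Δ*psaB* and 36726, 39316 and 44059 in Δ*psbJ*. Among the 36 pairs that the 9 lines other than Δ*petB/D* form, these 2 pairs were the ones in which both genes lay within 5% in all same-numbered libraries, with largest gaps of 1.1% and 2.2%. The next closest pair, as-*ATPC* and SNN, had a largest gap of 10.9%, and in footprints the closest pair was 86.4% apart.

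Other intron genes ran from near-identity to an excess, in contrast to most genes without introns. *rpl16* and *rpoC1* lay at 1.01 to 1.04 times the other line in both pairs, *ndhA* at 1.03 to 1.08, *rps16* at 1.09 to 1.12, *ycf3* at 1.20 to 1.41, *clpP* at 1.41 to 1.55 and *atpF* at 1.77 to 2.21. Over the 9 intron genes outside the inverted repeat, RNA count ratios were 1.00 to 2.09 for RB70 over Δ*petN* and 1.01 to 2.21 for Δ*psaB* over Δ*psbJ*, above 1 in every library for all 9. Over the 65 genes without introns the median ratio was 0.186 and 0.113, and the total RNA counts were 1029393 to 2278698 in RB70 and Δ*psaB*, against 6918156 to 14748697 in the other lines. *ndhB*, *rpl2* and *rps12*, intron genes with copies in the inverted repeat, behaved like the genes without introns, at 0.0692 to 0.273 and 0.0594 to 0.232. Where these counts came from was not tested, so every RNA and TE value of *petB* and *petD* that rests on RB70 or Δ*psaB* is given below as deposited, and values across lines are given with and without both.

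**Figure D1:**
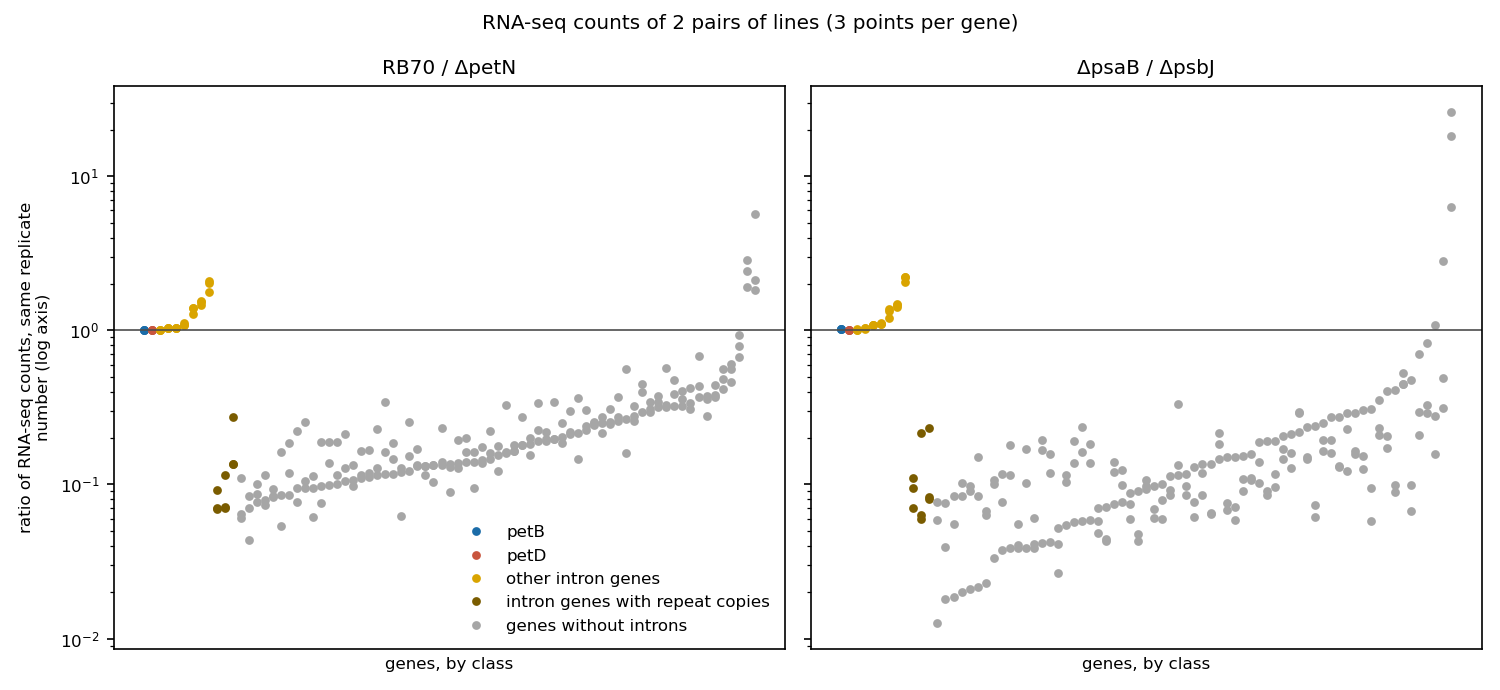
RNA-seq counts of RB70 divided by those of Δ*petN* (left) and of Δ*psaB* divided by those of Δ*psbJ* (right), for libraries of the same replicate number, on a log axis with 3 points per gene and the genes grouped by class. *petB* and *petD* sit at 1.00 to 1.02, the other intron genes outside the inverted repeat at or above 1, and most genes without introns between 0.01 and 1.

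In Δ*petB/D*, *petB* was lost at both levels, while *petD* gained RNA and lost most of its footprints. In this line the *aadA* cassette replaces *psbB*, *psbT*, *psbN*, *psbH*, *petB* and the first exon of *petD* with part of its intron, whereas the last exon of *petD*, where its footprints were counted, remains in the genome. *petB* had 1, 1 and 47 footprint counts in Δ*petB/D*, against 3429, 3711 and 5597 in pRB8c, and 9, 10 and 27 RNA counts in Δ*petB/D*, against 113508, 129384 and 95984 in pRB8c. As a share of the pRB8c mean CPM, *petB* footprints came to 0.0515% (exact 95% Poisson interval 0.00130 to 0.287), 0.0750% (0.00190 to 0.418) and 1.33% (0.981 to 1.78). The third Δ*petB/D* library was thus higher than the others, and it also held footprints of the other deleted genes, at 0.838% of pRB8c for *psbB*, 0.868% for *psbT*, 1.46% for *psbH* and 1.35% for *psbN*, against at most 0.491% in the first and second libraries. *petB* RNA was 0.00407%, 0.00613% and 0.00968% of pRB8c. These Poisson intervals cover counting error only, and the source of these reads was not tested.

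*petD* footprints numbered 116, 265 and 169 in Δ*petB/D*, which are 2.75%, 9.15% and 2.21% of the pRB8c mean, whose libraries had 7328, 6995 and 14148 counts. *petD* RNA had 118479, 83523 and 114615 counts in Δ*petB/D*, 193%, 184% and 148% of pRB8c, whose libraries had 32980, 33710 and 27290. All mutant libraries were below all pRB8c libraries in footprints and above them in RNA. The footprint change of *petD* was a log2 of −4.52 ± 0.58 (SE, n = 3 each), 22.9-fold lower (edgeR adjusted p = 0.00103), and the RNA change was 1.04 ± 0.12, 2.06-fold higher (edgeR adjusted p = 5.72e-09). *petB* fell in footprints (−7.42, edgeR adjusted p = 0.000549) and RNA (−13.58, edgeR adjusted p = 5.98e-32). Both genes thus passed the test at both levels, where 31.2% of the genes tested passed in footprints and 62.3% in RNA. Since *petB* is deleted and *petD* lacks the start of its reading frame, the *petB* calls and the *petD* footprint call are no test of a response. The remaining part of *petD* lies beside the *aadA* cassette, and the study reports raised RNA downstream of this cassette in other lines. The *petD* RNA rise therefore cannot be told apart from an effect of the insertion, and its source was not tested. Against RB70, *petD* RNA came out at −1.52 rather than 1.04, which rests on the RB70 counts set out above.

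The TE of *petD* fell by 5.50 ± 0.67 on the log2 scale (edgeR adjusted p = 4.93e-05), the lowest value of the 77 genes. That of *petB* was 6.04 (edgeR adjusted p = 4.93e-05) but compares a level near 0 with another near 0, and it was 3.35 with an edgeR adjusted p of 0.0667 without Δ*petB/D* replicate 3. Both genes were called in TE, where 16.9% of genes were, but these calls too rest on the line's construction. Of the 4 other *pet* genes, 3 rose in RNA, *petA* by 0.60, *petG* by 0.60 and *petL* by 0.94, where 62.3% of all genes were called, and *petN* was at −0.34, not called. That count held with library sizes alone and by limma on RPKM, but 1 was higher and 1 lower with the DESeq2 size factors, and 2 were higher and 1 lower with TMM factors computed without the genes hit. None of the 4 passed the test in footprints, where their median was 0.04 against −0.15 over all genes. The 4 *psbB* unit genes, all deleted, fell at both levels, as the line's construction fixes.

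In Δ*petN*, which lacks a small Cyt *b*6*f* subunit needed for a stable complex, footprints of *petB* and *petD* both rose while their RNA fell slightly. *petB* footprints were 16854, 15156 and 12120 CPM in Δ*petN*, against 3322, 4364 and 3782 CPM in pRB8c. *petD* footprints were 20991, 17355 and 18769 CPM in Δ*petN*, against 7098, 8225 and 9560 CPM in pRB8c. Neither gene's ranges overlapped, and the Δ*petN* means were the highest of the 10 lines for both genes. The log2 change was 1.83 ± 0.23 for *petB*, 3.56-fold higher and the second largest of 77 genes (edgeR adjusted p = 0.000131), and 1.09 ± 0.19 for *petD*, 2.13-fold higher and the twelfth (edgeR adjusted p = 0.000741), in a comparison where 48.1% of genes were called. Against RB70, the *petD* footprint change was 0.32 and was not called.

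*petB* RNA was 13752, 15722 and 14682 CPM in Δ*petN*, against 15527, 18674 and 16513 CPM in pRB8c. *petD* RNA was 3965, 4058 and 4000 CPM in Δ*petN*, against 4511, 4865 and 4695 CPM in pRB8c. The ranges overlapped for *petB* and were apart for *petD*. Both fell by the TMM-scaled test, *petB* by 0.32 ± 0.08 (edgeR adjusted p = 0.00331) and *petD* by 0.35 ± 0.07 (edgeR adjusted p = 0.000645), among 68.8% of genes called, but scaled by library size alone the same changes were 0.49 and 0.46. The median gene lay at −0.06 under TMM and 0.75 under library sizes, and relative to it *petB* stood at −0.26 under both scalings and *petD* at −0.29 and −0.28. The RNA calls also ended without any single Δ*petN* library, with −0.19, −0.20 and −0.26 for *petB* and −0.26, −0.19 and −0.28 for *petD* without replicates 1, 2 and 3, and for *petB* without pRB8c replicate 2 (−0.26).

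TE accordingly rose by 2.16 ± 0.21 for *petB*, 4.46-fold and the highest of the 77 genes (edgeR adjusted p = 2.89e-06), and by 1.43 ± 0.16 for *petD*, 2.7-fold (edgeR adjusted p = 8.17e-06), with 44.2% of genes called, and the *petD* value was 0.49 and not called by limma on RPKM. Among the other Cyt *b*6*f* genes, *petN*, the targeted gene, was at −6.38 in footprints and −5.28 in RNA, both called. None of *petA* (−0.22), *petG* (−0.29) and *petL* (−0.39) passed the test in footprints. Of the 4 other genes of the *psbB* unit, 1 rose and 1 fell in footprints. *psbH*, which encodes a PSII phosphoprotein, rose by 1.36 and *psbN* fell by 1.17, while *psbT*, a small PSII subunit, was at 0.42 and *psbB*, the antenna protein CP47, at −0.59 (edgeR adjusted p = 0.0101), neither of them called. In TE, *psbH* rose by 1.94, *psbT* by 1.82 and *psbB* by 0.53, and *psbN* was at 1.11 (edgeR adjusted p = 0.0104). With library sizes alone 2 of the 4 rose in footprints and none fell, and with the DESeq2 size factors 1 rose and 2 fell. All 4 *psbB* unit genes fell in RNA, from −0.59 to −2.29, under TMM and 3 of 4 under library sizes alone.

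In Δ*atpB/E*, which lacks 2 ATP synthase subunits, *petB* footprints rose and the RNA of both genes fell. *petB* footprints were 5515, 6885 and 12702 CPM in Δ*atpB/E*, against 3322 to 4364 CPM in pRB8c, so that the ranges did not overlap but the third mutant library stood well above the others. *petD* footprints were 9646, 7653 and 9799 CPM in Δ*atpB/E*, against 7098 to 9560 CPM in pRB8c, with overlap. *petB* rose by 1.45 ± 0.26, 2.74-fold (edgeR adjusted p = 0.000677), and *petD* was at 0.49 ± 0.19 (edgeR adjusted p = 0.0354), where 67.5% of genes were called. The *petB* value was 0.84 without Δ*atpB/E* replicate 3 and lost its call without replicate 2 (1.44, edgeR adjusted p = 0.0120), and footprint counts in this line were only 1100, 1256 and 2052 for *petB*. Both footprint changes were negative, −1.59 for *petB* and −2.52 for *petD*, by limma on RPKM computed per read mapped to any genome, and chloroplast reads were 3.00 to 4.79% of the mapped reads in Δ*atpB/E* against 22.4 to 27.5% in pRB8c.

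*petB* RNA was 8107, 10127 and 11521 CPM in Δ*atpB/E*, against 15527 to 18674 CPM in pRB8c, and *petD* RNA was 2309, 2854 and 3329 CPM in Δ*atpB/E*, against 4511 to 4865 CPM in pRB8c. No mutant library reached the pRB8c range for either gene. *petB* fell by 0.97 ± 0.22 (edgeR adjusted p = 0.00218) and *petD* by 0.94 ± 0.20 (edgeR adjusted p = 0.00182) under TMM, with 75.3% of genes called, but they were at 0.13 and 0.17 under library sizes alone. Relative to the median gene they stood at −1.12 and −1.08 under TMM and −1.15 and −1.11 under library sizes. Without pRB8c replicate 2 or 3 both calls were lost, at −0.92 and −0.96 for *petB* and −0.93 and −0.90 for *petD*.

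TE rose by 2.13 ± 0.36 for *petB*, 4.39-fold and the fourth highest of 77 (edgeR adjusted p = 0.00011), and by 1.12 ± 0.31 for *petD*, 2.18-fold (edgeR adjusted p = 0.00629), with 37.7% of genes called, but by limma on RPKM both were negative, at −0.91 and −1.87. The *petD* call was lost without Δ*atpB/E* replicate 1 (0.83) or 2 (1.09) and without pRB8c replicate 1 (1.02), 2 (1.15) or 3 (1.21), and was kept without Δ*atpB/E* replicate 3. *psbH* moved in the same way as *petB*, with 1.49 in footprints, −1.69 in RNA and 2.88 in TE, all called. In footprints *psbB* (−0.02), *psbT* (0.05) and *psbN* (−0.45) were not called, and in TE *psbB* (2.19) and *psbT* (1.19) rose. By limma on RPKM all 4 *psbB* unit genes and all 4 other *pet* genes were called lower in footprints. *petA* differed, as its footprints rose by 0.61 and its RNA by 0.88, and its TE was −0.56, not called. The 4 *psbB* unit genes all fell in RNA, from −1.23 to −2.50, under TMM, and 1 of them did under library sizes alone.

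In as-*ATPC*, the soil-grown antisense line, the footprints of *petB* and *petD* moved in opposite directions by small amounts. *petB* footprints were 9415, 10389 and 10088 CPM in as-*ATPC*, against 9587, 9389 and 8703 CPM in SNN, with overlap. *petD* footprints were 6815, 8277 and 6869 CPM in as-*ATPC*, against 10708, 10253 and 10255 CPM in SNN, all below. *petB* rose by 0.25 ± 0.06, 1.19-fold (edgeR adjusted p = 0.00117), and *petD* fell by 0.38 ± 0.06, 1.30-fold lower (edgeR adjusted p = 2.72e-05), with 58.4% of genes called. The *petB* call was lost without as-*ATPC* replicate 1 (0.23) or 3 (0.18) and with the DESeq2 size factors (0.16). Counts of *petB* in this pair were 17697 to 48150 per library, and its SEs were the smallest among the footprint comparisons.

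The RNA of both genes was lower in as-*ATPC*. *petB* had 13698, 14409 and 13980 CPM in as-*ATPC*, against 17462, 17296 and 18175 CPM in SNN, and *petD* had 3708, 3890 and 3871 CPM in as-*ATPC*, against 4883, 4888 and 5310 CPM in SNN. The ranges did not overlap for either gene. The falls were 0.38 ± 0.07 for *petB* (edgeR adjusted p = 1.50e-05) and 0.44 ± 0.07 for *petD* (edgeR adjusted p = 6.18e-07) with 63.6% of genes called, but −0.01 and −0.07 under library sizes alone. TE rose by 0.60 ± 0.08 for *petB* (1.52-fold, edgeR adjusted p = 1.26e-06) and was 0.04 ± 0.09 for *petD* (edgeR adjusted p = 0.773), with 41.6% of genes called. In a fit of all 10 lines none of these changes of as-*ATPC* was called. The 4 *psbB* unit genes fell in footprints, from −0.23 for *psbH* to −1.19 for *psbN*, and so did *petA* (−0.47) and *petL* (−0.53). *petB* was the one gene of those of the *psbB* unit and of Cyt *b*6*f* listed here whose footprints rose in this line.

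In the PSII mutants Δ*psbJ* and Δ3′-*psbD*, no change of translation output passed the test for either gene. *psbJ* encodes a small PSII subunit and *psbD* the reaction centre protein D2. *petB* footprints were 3208, 4369 and 4012 CPM in Δ*psbJ* and 3528, 3461 and 3501 CPM in Δ3′-*psbD*, against 3322, 4364 and 3782 CPM in pRB8c, so that both overlapped the control. *petD* footprints were 10488, 11117 and 10535 CPM in Δ*psbJ* and 9070, 9528 and 13771 CPM in Δ3′-*psbD*, against 7098, 8225 and 9560 CPM in pRB8c. Here every Δ*psbJ* library lay above the control and the Δ3′-*psbD* range met it. In Δ*psbJ* the changes were 0.01 ± 0.19 for *petB* (edgeR adjusted p = 0.954) and 0.37 ± 0.17 for *petD* (edgeR adjusted p = 0.118), with 14.3% of genes called. In Δ3′-*psbD* they were −0.24 ± 0.18 (edgeR adjusted p = 0.299) and 0.29 ± 0.25 (edgeR adjusted p = 0.355), with 24.7% called, but library sizes alone gave 0.92 and 1.42, both called.

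In RNA, all 4 values were below 0 under TMM scaling, and 1 gene passed the test in each mutant. The ratio of *petD* to *petB* RNA, given below, was called in neither mutant. *petB* RNA was 16932, 17373 and 12740 CPM in Δ*psbJ* and 9330, 10678 and 10126 CPM in Δ3′-*psbD*, against 15527, 18674 and 16513 CPM in pRB8c. *petD* RNA was 3985, 4539 and 3424 CPM in Δ*psbJ* and 2565, 3163 and 3186 CPM in Δ3′-*psbD*, against 4511, 4865 and 4695 CPM in pRB8c. Only the Δ3′-*psbD* libraries lay below the control range for both genes. In Δ*psbJ*, *petD* fell by 0.42 ± 0.12 (edgeR adjusted p = 0.00116) and *petB* was at −0.30 ± 0.11 (edgeR adjusted p = 0.0105), with 59.7% of genes called. In Δ3′-*psbD*, *petB* fell by 0.44 ± 0.13 (edgeR adjusted p = 0.00263) and *petD* was at −0.35 ± 0.15 (edgeR adjusted p = 0.0300), with 68.8% called. Under library sizes alone all 4 values were above 0, at 0.35 and 0.23 in Δ*psbJ* and 0.26 and 0.34 in Δ3′-*psbD* for *petB* and *petD*.

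Relative to the median gene, *petB* and *petD* RNA stood at −0.49 and −0.61 in Δ*psbJ* and at −0.80 and −0.71 in Δ3′-*psbD*, and library sizes alone gave −0.48 and −0.61, and −0.82 and −0.74. The *petB* call in Δ3′-*psbD* ended without any pRB8c replicate (−0.49, −0.43 and −0.40 without replicates 1, 2 and 3). The one for *petD* in Δ3′-*psbD* was reached without Δ3′-*psbD* replicate 3 (−0.48), and the one for *petB* in Δ*psbJ* without Δ*psbJ* replicate 1 (−0.36) or pRB8c replicate 1 (−0.45). No TE call was made for either gene, with values of −0.08 and 0.42 in Δ*psbJ*, where 35.1% of genes were called, and 0.10 and 0.50 in Δ3′-*psbD*, where 16.9% were. *psbB* footprints fell by 1.89 in Δ*psbJ*, and all 4 *psbB* unit genes fell in RNA in both mutants under TMM, with 2 and 1 doing so under library sizes alone.

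In the PSI mutant Δ*psaB*, compared with RB70, nothing was called for either gene at any level. *petB* footprints were 3729, 5693 and 10659 CPM in Δ*psaB*, against 5065, 4907 and 5501 CPM in RB70, and *petD* footprints were 8810, 11358 and 13422 CPM in Δ*psaB*, against 14063, 12520 and 16043 CPM in RB70. The *petB* range of Δ*psaB* took in that of RB70 whole, and the libraries rested on counts of 218, 1053 and 1798 for *petB* and 515, 2101 and 2264 for *petD* in Δ*psaB*. The changes were 0.52 ± 0.35 (edgeR adjusted p = 0.309) and −0.20 ± 0.24 (edgeR adjusted p = 0.593). Over all genes 0% were called in footprints and 0% in TE by edgeR, while 27 and 26 genes had an unadjusted p under 0.05 and DESeq2 called 14 and 5. The *petB* value was 0.04 without Δ*psaB* replicate 3, which by the study's numbering is the single library of the second allele, so that allele and library cannot be told apart there. The labels give no allele, and it was not checked that they number the libraries in the same way.

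*petB* RNA was 118820, 119109 and 109193 CPM in Δ*psaB*, against 102165, 77061 and 105076 CPM in RB70, and *petD* RNA was 27739, 30612 and 29000 CPM in Δ*psaB*, against 29196, 19862 and 28469 CPM in RB70. These are the counts that nearly equal those of Δ*psbJ* and Δ*petN*. The changes were 0.25 ± 0.31 (edgeR adjusted p = 0.582) and 0.14 ± 0.31 (edgeR adjusted p = 0.758), with 9.09% of genes called, and TE stood at 0.50 ± 0.49 (edgeR adjusted p = 0.541) and −0.09 ± 0.37 (edgeR adjusted p = 0.955).

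**Figure D2:**
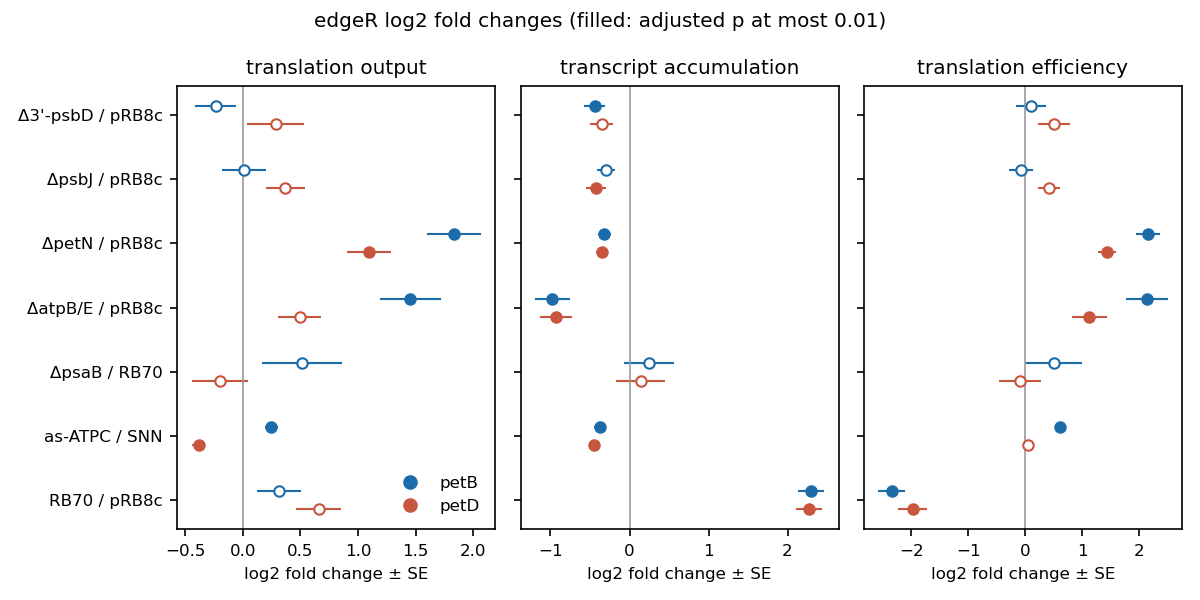
Changes of *petB* and *petD* in translation output, transcript accumulation and TE as log2 ratios with SE bars, for 7 comparisons other than Δ*petB/D*, which is off the scale. Filled points passed an adjusted p of 0.01: TE of *petB* was called in Δ*petN* (2.16), Δ*atpB/E* (2.13), as-*ATPC* (0.60) and RB70 (−2.34).

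Between the control lines RB70 and pRB8c, the deposited RNA counts of both genes differed widely, and the differences in footprints were smaller. The RB70 RNA counts are those that nearly equal the Δ*petN* counts, so the RNA gap is given as deposited and not as a difference between the plants. RB70 had 102165, 77061 and 105076 CPM of *petB* RNA, against 15527, 18674 and 16513 CPM in pRB8c, and 29196, 19862 and 28469 CPM of *petD* RNA, against 4511, 4865 and 4695 CPM in pRB8c. All RB70 libraries were far above all pRB8c libraries. The fitted change was 2.30 ± 0.17 for *petB*, 4.92-fold (edgeR adjusted p = 1.50e-06), and 2.27 ± 0.16 for *petD*, 4.83-fold (edgeR adjusted p = 1.50e-06), the seventh and eighth of 77 genes, with 61.0% of genes called. With TMM factors computed without the intron genes, an alternative added after seeing the data, the values were 2.46 and 2.43.

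In footprints, *petB* was at 5065, 4907 and 5501 CPM in RB70, against 3322, 4364 and 3782 CPM in pRB8c, and *petD* was at 14063, 12520 and 16043 CPM in RB70, against 7098, 8225 and 9560 CPM in pRB8c. Every RB70 library was higher for both genes, but neither change passed, at 0.31 ± 0.19 (edgeR adjusted p = 0.239) and 0.66 ± 0.20 (edgeR adjusted p = 0.0335), where 9.09% of genes were called. Under library sizes alone both passed, at 0.69 and 1.02. *petD* passed with the replicate number as a block (0.67, edgeR adjusted p = 0.00583) and without RB70 replicate 2 (0.90). TE fell by 2.34 ± 0.23 for *petB* (5.08-fold lower, edgeR adjusted p = 3.03e-06) and by 1.98 ± 0.25 for *petD* (3.95-fold lower, edgeR adjusted p = 1.77e-05), with 44.2% of genes called. These TE values rest on the RB70 RNA counts set out above.

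The same excess was seen in most other intron genes. The 8 highest RNA changes of RB70 over pRB8c all belonged to intron genes, among them *rpoC1*, an RNA polymerase subunit (4.25), *atpF*, an ATP synthase subunit (3.53), and *clpP*, a protease subunit (2.87). Of the 10 intron genes other than *petB* and *petD*, 7 rose, and *rps12* fell by 0.48, with a median of 2.54 against 0.05 for the remaining genes. In footprints the largest rise among those 10 genes was 0.49, for *rpl16*, and none of them was called.

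The excess came with an excess of counted reads. In the 6 RNA libraries of RB70 and Δ*psaB*, the 12 intron genes made up 19.3 to 46.1% of the reading-frame counts, against 2.14 to 7.66% in the other 24 libraries. All reading frames together came to 95.5 to 114% of the chloroplast-mapped reads in RB70 and Δ*psaB*, against 71.3 to 87.0% in the rest, while the genes other than those 12 came to 61.5 to 77.3%, against 65.8 to 84.5%. In Ribo-seq the intron genes took 2.46 to 5.97% of these counts in RB70 and Δ*psaB*, against 2.07 to 6.71% in the rest.

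**Figure D3:**
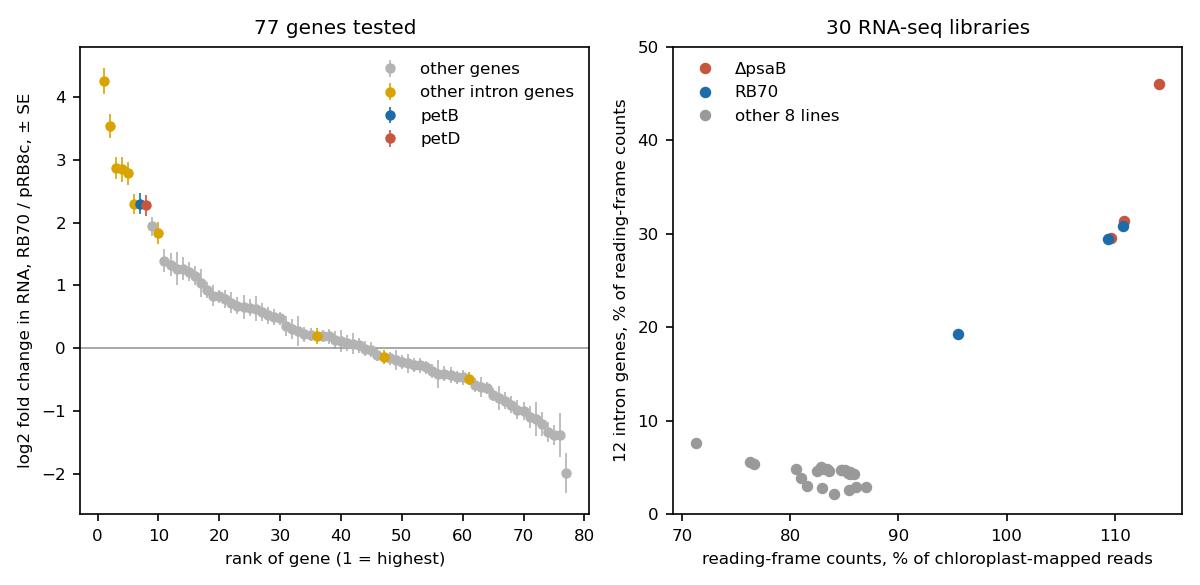
Left, RNA changes of RB70 over pRB8c for the 77 genes tested, ordered by size, as log2 ratios, with the intron genes marked. Right, the share of reading-frame counts taken by the 12 intron genes, in percent, against all reading-frame counts as a percentage of chloroplast-mapped reads, for every RNA library: the 6 libraries of RB70 and Δ*psaB* sit apart at shares of 19.3 to 46.1%.

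The ratio of *petD* to *petB* counts was nearly constant in RNA and varied widely in footprints. Over the 27 libraries of the 9 lines other than Δ*petB/D*, the RNA ratio lay between 0.233 and 0.315 (median 0.275), and between 0.235 and 0.315 (median 0.280) over the 7 lines without RB70 and Δ*psaB*. Line means of the log2 ratio spanned 0.23 over 9 lines and 0.21 over 7. In footprints the ratio lay between 0.681 and 3.93 (median 1.88 over 9 lines and 1.55 over 7), and line means spanned 2.05 over either set. Per length of the counted region, *petD* RNA in pRB8c was 0.374 ± 0.021 times *petB* RNA (SD, n = 3), while *petD* footprints were 3.02 ± 0.45 times *petB* footprints.

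The footprint ratios of single libraries were 2.57, 2.75 and 3.93 in Δ3′-*psbD*, 3.27, 2.54 and 2.63 in Δ*psbJ*, 1.25, 1.15 and 1.55 in Δ*petN* and 1.75, 1.11 and 0.771 in Δ*atpB/E*, against 2.14, 1.88 and 2.53 in pRB8c. Both PSII mutants thus lay above pRB8c, and Δ*petN* and Δ*atpB/E* below it. Set beside the other transplastomic control, RB70, both PSII mutants overlapped it, while Δ*petN* and Δ*atpB/E* lay below it too. They were 2.36, 2.0 and 1.26 in Δ*psaB* against 2.78, 2.55 and 2.92 in RB70, and 0.724, 0.797 and 0.681 in as-*ATPC* against 1.12, 1.09 and 1.18 in SNN. SNN itself, grown on soil, was near 1 while both transplastomic controls on medium were near 2 to 3, and growth and genotype cannot be told apart there.

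The footprint ratios did not overlap in any of the 6 comparisons of a mutant with its control, nor between RB70 and pRB8c, which is the most that 3 against 3 allows (two-sided exact permutation p = 0.1, adjusted 0.175 over 14 comparisons). In edgeR fits scaled to the *petB* count, the *petD* ratio passed in as-*ATPC*, 1.54-fold lower at −0.62 ± 0.09 (adjusted p = 1.78e-07), and that call was lost in a fit of all lines but Δ*petB/D* (adjusted p = 0.210). Values were −0.73 in Δ*petN* (edgeR adjusted p = 0.0136), −0.85 in Δ*atpB/E* (edgeR adjusted p = 0.0895), −0.56 in Δ*psaB*, 0.50 in Δ3′-*psbD*, 0.37 in Δ*psbJ* and 0.33 in RB70 over pRB8c, none of them called. The Δ*petN* ratio passed without Δ*petN* replicate 3 (−0.87) and that of Δ*atpB/E* without Δ*atpB/E* replicate 1 (−1.21). Among the alternative fits, the lowest values were 0.034 in Δ*psbJ* and 0.167 in Δ3′-*psbD*. Of all genes scaled to *petB*, the share called was 15.8% in Δ3′-*psbD*, 1.32% in Δ*psbJ*, 82.9% in Δ*petN*, 57.9% in Δ*atpB/E*, 9.21% in Δ*psaB*, 55.3% in as-*ATPC* and 15.8% in RB70.

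In RNA the *petD* to *petB* ratio was called in none of the 7 comparisons, by edgeR fits of −0.13 to 0.08 (unadjusted p from 0.186 to 0.838). The share of all genes called when scaled to *petB* RNA was 65.8% in Δ3′-*psbD*, 65.8% in Δ*psbJ*, 71.1% in Δ*petN*, 65.8% in Δ*atpB/E*, 5.26% in Δ*psaB*, 69.7% in as-*ATPC* and 94.7% in RB70. Ranges were apart in as-*ATPC* alone (two-sided exact permutation p = 0.1, adjusted 0.175).

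**Figure D4:**
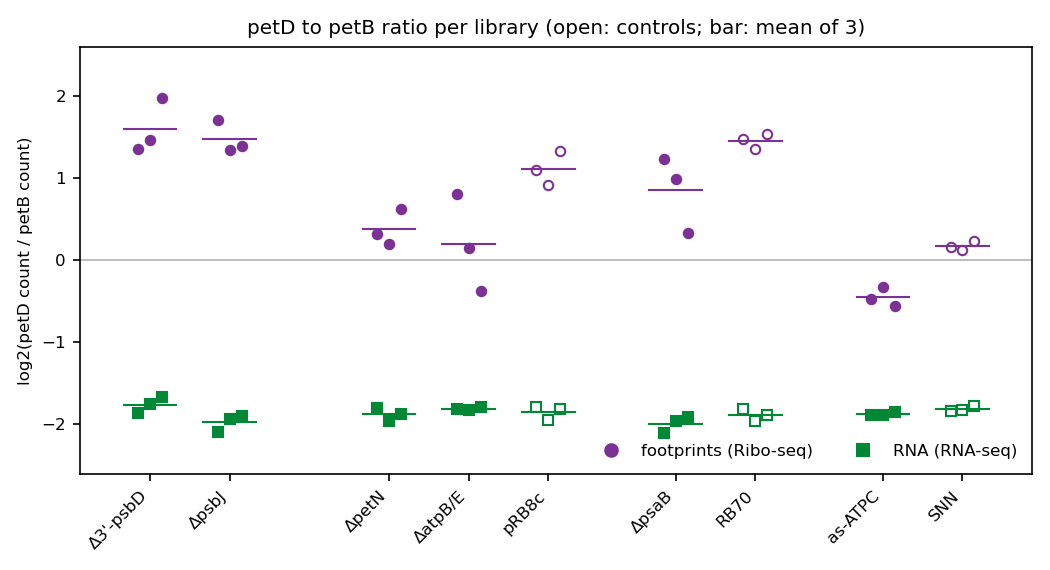
log2 ratio of *petD* to *petB* counts per library (points), in footprints and in RNA, for the 9 lines other than Δ*petB/D*, each mutant beside its control. RNA ratios stay between 0.233 and 0.315, and footprint ratios run from 0.681 in as-*ATPC* to 3.93 in Δ3′-*psbD*.

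Ordered by mean footprint level, *petB* went from Δ*petN* (14710 CPM) through as-*ATPC* (9964), SNN (9226), Δ*atpB/E* (8367), Δ*psaB* (6694), RB70 (5158), Δ*psbJ* (3863) and pRB8c (3822) to Δ3′-*psbD* (3497) and Δ*petB/D* (18.6). Neighbours differed beyond their ranges only at 3 places, between Δ*petN* and as-*ATPC*, between RB70 and Δ*psbJ*, and before Δ*petB/D*. For *petD* the order was Δ*petN* (19038), RB70 (14209), Δ*psaB* (11196), Δ3′-*psbD* (10790), Δ*psbJ* (10713), SNN (10406), Δ*atpB/E* (9032), pRB8c (8295), as-*ATPC* (7320) and Δ*petB/D* (390), with ranges apart below Δ*petN*, SNN and as-*ATPC*. In RNA, *petB* stood at 115708 CPM in Δ*psaB* and 94768 in RB70, and between 9919 (Δ*atpB/E*) and 17644 (SNN) in the other lines but Δ*petB/D* (1.12). *petD* stood at 29117 and 25842 in Δ*psaB* and RB70, at 8221 in Δ*petB/D*, and between 2831 (Δ*atpB/E*) and 5027 (SNN) elsewhere.

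**Figure D5:**
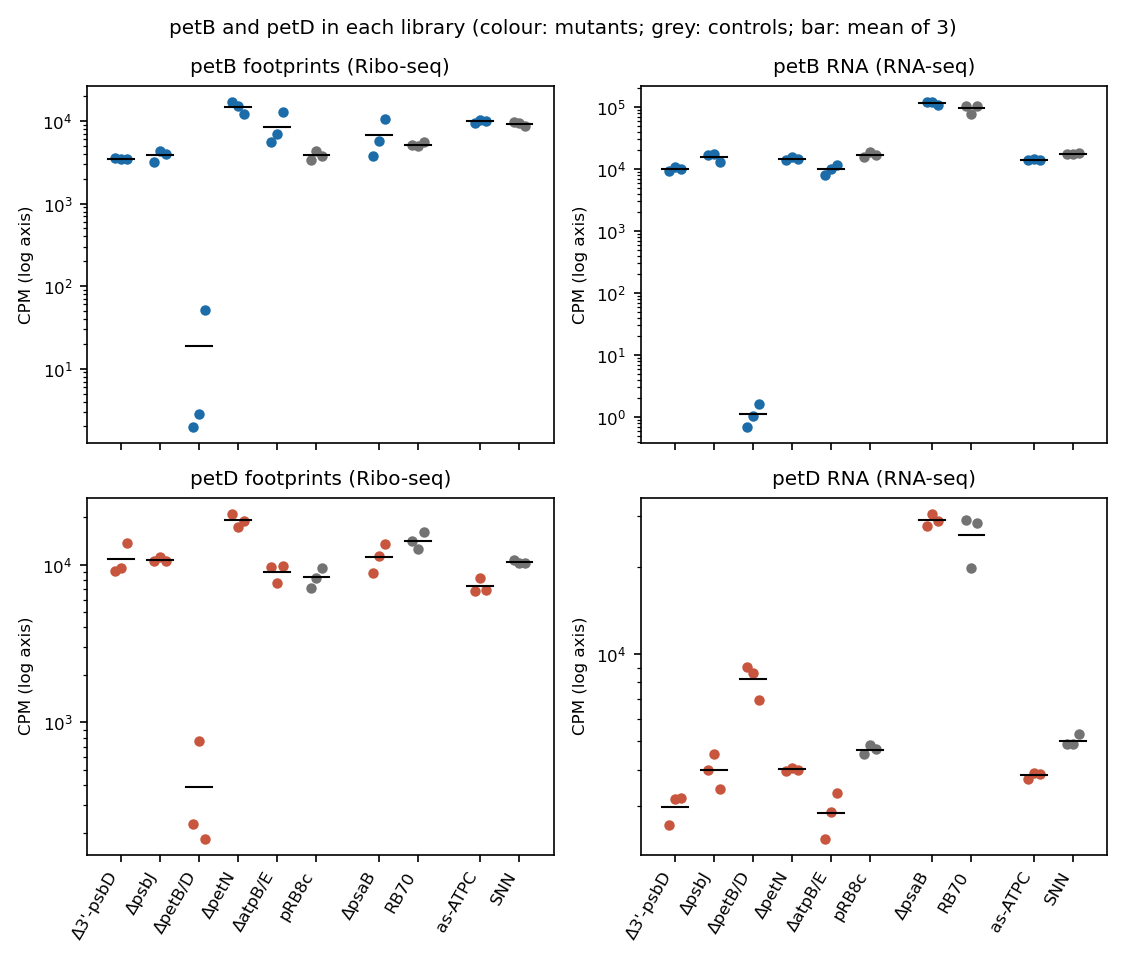
CPM of *petB* and *petD* in footprints and RNA for every library (points) of the 10 lines, on log axes. Δ*petN* has the highest footprint levels for both genes, and RB70 and Δ*psaB* the highest RNA as deposited.

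Other genes whose line means followed *petB* and *petD* were found by Pearson's r of mean log2 CPM, a description over 9 lines that share libraries, depth and controls. In footprints, genes close to *petB* included the ribosomal protein genes *rpl14* (0.73) and *rps14* (0.69), and *petD* was closest to *rpl16* (0.71), *atpI* (0.70) and *psbT* (0.68), and the pair itself was at 0.29. Over the 7 lines without RB70 and Δ*psaB*, a set added after seeing the data, *petB* footprints were closest to *rps14* (0.82), *rpl14* (0.73) and *rps4* (0.73), *petD* footprints to *psbT* (0.83), *rpl14* (0.77) and *psaB* (0.71), and the pair was at 0.39. In RNA, *petB* and *petD* were closest to each other (0.999), followed by *atpF* for both (0.992 and 0.989), then *ndhA* for *petB* (0.965) and *rps16* for *petD* (0.956). Over the same 7 lines the pair was still closest in RNA at 0.98, but the next was *psbB*, at 0.95 and 0.96, followed by *psaA* for *petB* (0.92) and *psbH* for *petD* (0.90).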

How the data were processed

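Ribo-seq and RNA-seq counts of 10 tobacco lines with 3 libraries per line and type were analysed, grouped by the sample labels. The authors deposited read counts per chloroplast reading frame, made with STAR 2.7.1a by mapping in turn to rRNA and tRNA and to the chloroplast, mitochondrial and nuclear genomes, and they deposited read counts per library by genome. RNA counts were estimated for 6 genes of the inverted repeat, with 94 values not whole, and the authors deposited these estimated counts, which were rounded. The sources used here name no strand setting for the counts, so *psbN* and its sense partners are uncertain. The 60 columns of per-sample RPKM values were not used.

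Genes that did not reach 10 counts in 3 or more libraries were left out (*matK*), and 77 of 78 were tested. The main test was edgeR 4.0.16 (R 4.3.3) with quasi-likelihood fits, TMM factors and Benjamini-Hochberg adjustment at 0.01. TE was the library type by genotype interaction over 12 libraries. The *petD* to *petB* ratio was tested with library sizes set to the *petB* count and by exact permutation of log2 ratios. Alternatives were DESeq2 1.42.0, limma 3.58.1 on log2(RPKM + 1) computed from the counts, other scalings, no filter, all 10 lines in 1 fit, the other control line, the replicate number as a block, and each library left out. The tests were also run on simulated counts with known changes. These copied the depth of Δ*petN* and pRB8c alone, with 1 fixed dispersion and independent replicates, so shallow libraries such as those of Δ*psaB* were not covered. Besides *petB* and *petD*, genes were named from lists of cytochrome *b*6*f*, *psbB* unit and intron genes and as the 3 genes most like each member, of which 1 is not reported here. The members and lists were chosen with earlier results of these data known.

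The 60 pairs of replicates all differed by more than counting noise. Same-numbered libraries deviated together, with every correlation of deviations above 0.1, in 2 of 16 comparisons and library types. These were the RNA of Δ3′-*psbD* and that of Δ*psaB*, and r ran from −0.58 to 0.64 over all. No main fit took the numbers as pairs, also not in those 2, and the replicate block was used only as an alternative.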

Additional observations from a re-analysis of the deposited data

How the results depend on the processing

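The 62 results gave 846 alternative values. Of these, 709 kept their direction and side of the threshold, 48 lost a call, 32 gained one and 57 changed sign, and the cause of each change was not tested unless the setting itself names it. Only 29 of the 62 results were called in the main fit, so a kept side of the threshold can also mean not called. The tally takes in Δ*petB/D* results that the line's construction fixes and results that rest on the RB70 or Δ*psaB* RNA counts. The footprint rise of *petB* in Δ*petN* and its TE rise kept their calls under every alternative run. RNA falls turned with the scaling, and RNA or TE values set against RB70 rest on its intron-gene counts. Outside Δ*petB/D*, *petB* footprint counts per library were lowest in Δ*psaB* (218 to 1798), RB70 (669 to 1023), Δ*atpB/E* (1100 to 2052) and Δ3′-*psbD* (1412 to 2266), where depth limits the precision.

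With DESeq2's Wald test, *petD* in Δ3′-*psbD* gave RNA −0.64 and TE 0.85, *petB* in Δ*psbJ* gave footprints −0.077, RNA −0.48 and TE 0.28, *petD* TE in Δ*psbJ* was 0.76, *petB* RNA in Δ*petN* was −0.24, *petB* TE in Δ*psaB* was −0.052, and *petD* footprints in RB70 were 0.71. DESeq2 factors in edgeR gave −0.64, −0.077, −0.48, 0.28, 0.76, −0.24 and −0.053 for all of these but *petD* TE in Δ3′-*psbD* and *petD* footprints in RB70, and also *petD* TE 1.00 in Δ*atpB/E* and *petB* footprints 0.16 in as-*ATPC*. TMM without the genes hit gave *petD* RNA −0.46 in Δ3′-*psbD* and *petB* RNA −0.33 in Δ*psbJ*, and no filter gave *petD* RNA −0.39 in Δ*psbJ* and *petD* TE 1.07 in Δ*atpB/E*.

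With library sizes alone, Δ3′-*psbD* gave footprints 0.92 (*petB*) and 1.42 (*petD*) and RNA 0.26 and 0.34, Δ*psbJ* RNA 0.35 and 0.23, Δ*petN* RNA 0.49 and 0.46, Δ*atpB/E* *petD* footprints 1.28 and RNA 0.13 and 0.17, Δ*psaB* *petD* footprints 0.50 and TE 0.36, as-*ATPC* RNA −0.0087 and −0.073 and *petD* TE −0.28, and RB70 footprints 0.69 and 1.02. With limma on log2(RPKM + 1), Δ3′-*psbD* gave *petD* footprints −0.87, RNA 0.016 and 0.099 and TE −1.36 and −0.96, Δ*psbJ* RNA 0.33 and 0.21, Δ*petN* RNA 0.54 and 0.52 and *petD* TE 0.49, Δ*atpB/E* footprints −1.59 and −2.52 and TE −0.91 and −1.87, Δ*psaB* *petB* footprints −0.32 and TE −0.49, and as-*ATPC* *petB* footprints 0.18, RNA −0.12 and −0.18 and TE 0.30 and −0.26.

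With all 10 lines in 1 fit, *petD* RNA was −0.66 in Δ3′-*psbD* and −0.24 in Δ*psbJ*, *petB* TE 0.38 in Δ*psbJ*, RNA −0.20 (*petB*) and −0.23 (*petD*) in Δ*petN*, *petB* footprints 1.13 and *petD* TE 0.81 in Δ*atpB/E*, and in as-*ATPC* footprints 0.11 and −0.51, RNA −0.33 and −0.39 and *petB* TE 0.66, none of the as-*ATPC* values called. All lines but Δ*petB/D* in 1 fit gave footprint ratios of −0.85 in Δ*atpB/E* (gained) and −0.62 in as-*ATPC* (lost).

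Against the other transplastomic control, Δ3′-*psbD* gave *petD* footprints −0.19 and RNA −2.56 and TE 2.32 and 2.37, Δ*psbJ* footprints −0.36 and −0.35, *petB* RNA −2.64 and TE 2.41 and 2.51, Δ*petB/D* *petD* RNA −1.52, Δ*petN* *petD* footprints 0.32 and ratios −1.07 (footprints) and 0.0077 (RNA), Δ*atpB/E* *petD* footprints −0.24, and Δ*psaB* *petD* footprints 0.37, RNA 2.77 and 2.63 and TE −1.95 and −2.18.

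With the replicate number as a block, *petD* footprints in RB70 were 0.67 and gained a call, and it changed no other call of *petB* or *petD*. The count of all genes called moved by over 1.5 times with the block in Δ*psbJ* footprints (23 against 11), Δ*psaB* footprints (8 against 0) and RNA (15 against 7) and RB70 RNA (29 against 47).

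Leaving out 1 library at a time gave these ranges. For *petB*, RNA ran from −1.24 to −0.81 in Δ*atpB/E*, −0.37 to −0.19 in Δ*petN*, −0.53 to −0.40 in Δ3′-*psbD* and −0.45 to −0.24 in Δ*psbJ*, TE from 3.35 to 6.28 in Δ*petB/D* and −0.21 to 0.20 in Δ*psbJ*, and footprints from 0.18 to 0.28 in as-*ATPC*, 0.84 to 1.61 in Δ*atpB/E* and −0.097 to 0.16 in Δ*psbJ*. For *petD*, RNA ran from −1.21 to −0.77 in Δ*atpB/E*, −0.37 to −0.19 in Δ*petN*, −0.0022 to 0.29 in Δ*psaB* and −0.48 to −0.30 in Δ3′-*psbD*, TE from −0.031 to 0.045 in as-*ATPC*, 0.83 to 1.36 in Δ*atpB/E* and −0.57 to 0.069 in Δ*psaB*, and footprints from 0.51 to 0.90 in RB70. The footprint ratio ran from −1.21 to −0.61 in Δ*atpB/E* and −0.87 to −0.62 in Δ*petN*, and the RNA ratio from −0.011 to 0.066 in Δ*atpB/E* and −0.075 to 0.0097 in Δ*petN*.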
